A study of Mus musculus with 4 samples.

Results

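The genes described here mark the stroma of the endometrium, the connective tissue of the uterine lining, and the pattern of the Müllerian duct, the embryonic tube that forms the oviduct, uterus and upper vagina. All 32 symbols of a list fixed by name had a probe set that the platform annotation assigns to that gene alone, out of 18193 genes with such a probe set, and the probe set with the highest mean stood for each gene. They comprised 12 HOX genes, 11 other transcription factors, 6 receptors and enzymes, and 3 secreted proteins. RNA came from endometriotic lesions, in which tissue like the lining of the uterus grows at other sites, of mice given a high-fat diet (2 arrays, replicates 1 and 2) or a casein diet that the labels call the control (2 arrays, replicates 1 and 2). The series title calls the mice immunocompetent, and their strain, age and time on diet, the site of the lesions and the number of animals behind an array are not stated in the labels. Nothing says that arrays of 1 diet came from separate animals, so the p-values measure only the spread between these samples, which may be technical.

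HOX genes encode homeodomain transcription factors that lie in 4 clusters, and their order along a cluster follows the order of their domains along the body. In the mouse reproductive tract, Hoxa9 marks the oviduct, Hoxa10 the uterus, Hoxa11 the uterus and cervix, and Hoxa13 the vagina, and the adult uterine stroma keeps Hoxa10 and Hoxa11 on. HAND2 and COUP-TFII (Nr2f2) are stromal transcription factors of the progesterone response in the mouse uterus, and PDGFRA is a growth factor receptor carried by fibroblasts of many organs.

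Values are deposited linear intensities, which the authors had normalised across arrays, and differences are log2 of the high-fat diet minus log2 of the casein diet with the standard error (SE) from limma, fitted over all 12797 genes whose mean intensity reached 33.9. Median intensities were alike, 56.4 and 56.1 on the high-fat diet and 55.1 and 56.5 on the casein diet. The 4 arrays differed in markers of other tissues, none of which is at an intensity of 0, and no detection calls were at hand. Intensities summed over 9 gastric mucosa markers were 400.3 and 410.2 on the high-fat diet, against 65057 and 9960.1 in casein diet replicates 1 and 2, and casein diet replicate 1 was highest for 7 of the 9. The proton pump genes in this list did not follow the sum. Atp4b had 46.6 and 41.5 on the high-fat diet against 46.5 and 44.4 on the casein diet. Atp4a, under the intensity filter, had 18.1 and 23.8 against 25.4 and 27.0. Sums over 10 skeletal muscle markers were 31274 and 810.1 in high-fat diet replicates 1 and 2, against 651.7 and 906.9 on the casein diet. Sums over 12 markers of endometrial epithelium were 16423 and 20150.0 on the high-fat diet, against 35080.0 and 28305 on the casein diet. Casein diet replicate 1 was highest for 7 of the 12 and lowest for 2. There Krt8 had 10009 and Krt19, also listed as a mesothelial marker, 5236. Ltf had 3939.6 and 4300 on the high-fat diet against 3833 and 9294 on the casein diet. The sum thus cannot be read as endometrial epithelium alone. The array with the highest gastric sum, casein diet replicate 1, was also the array on which most members were lowest. What part the source of the gastric markers had in the results below was not tested. The estrogen receptor gene Esr1 had 3319 and 4046 on the high-fat diet against 3799.7 and 3775 on the casein diet, and the progesterone receptor gene Pgr had 2032 and 2068 against 2761 and 2600.2. Esr1 is 1 of the 12 epithelial markers, of which 11 had the lower mean on the high-fat diet (median difference -0.66). Neither receptor gene was used as a measure of how much uterine tissue an array held.

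Most of the stromal and patterning genes were lowest in casein diet replicate 1, and no member passed the test between diets. Under limma with Benjamini-Hochberg adjustment, 0 of 29 members tested passed at an adjusted p of 0.05, as for all genes (0 of 12797, 0%), and the smallest adjusted p among members was 0.856. At an unadjusted p under 0.05 there were 3 members, Pdgfra higher and Meis1 and Dio2 lower on the high-fat diet, against 4.97% of all genes (2.24% higher and 2.73% lower). With an array left out, 1 diet has a single array and no spread of its own, so apart from the next count only differences are given. That count does not show that calls fall when an array is dropped. Without casein diet replicate 2 the count at that threshold was instead larger than in the full fit, for members and for all genes. Without high-fat diet replicate 1 there was 1 such member of 29 (3.37% of all genes), and with the mean of all probe sets of a gene in place of the brightest there was 1 of 28 (4.97%). With 2 arrays against 2, an exact two-sided permutation test cannot go below 0.333, so no single value was tested that way. The high-fat diet mean was the higher for 22 of the 32 members, against 48.6% of all genes tested, and the median difference was 0.26, against -0.0051 over all genes. Both high-fat diet arrays lay above both casein diet arrays for 10 members (16.6% of all genes) and below both for 3 (19.3%), so that 13 in all did not overlap (36% of all genes) and the groups of the other 19 did. Casein diet replicate 1 was the lowest of the 4 arrays for 19 of 32 members, against 34.5% of all genes, and it lay over 0.5 log2 below casein diet replicate 2 for 12 (6.99% of all genes). The high-fat diet mean exceeded casein diet replicate 1 by over 0.5 log2 for 16 members (7.88% of all genes). It exceeded casein diet replicate 2 by that much for only 2, Angpt4 and Hoxa13 (2.67% of all genes), and Hoxa13 lay under the intensity filter. Counts out of 32 include 3 members under the filter, whereas the shares are over genes tested. Among the 29 members tested, the high-fat diet mean was the higher for 20, and casein diet replicate 1 was lowest for 18. Measured against casein diet replicate 2 alone, 15 of 32 members were higher (46.8% of all genes) and the median difference was -0.012. Against casein diet replicate 1 alone, 24 were higher (50.3% of all genes) and the median was 0.48. In whole lesions, fewer stromal cells and less RNA per stromal cell cannot be told apart.

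**Figure D1:**
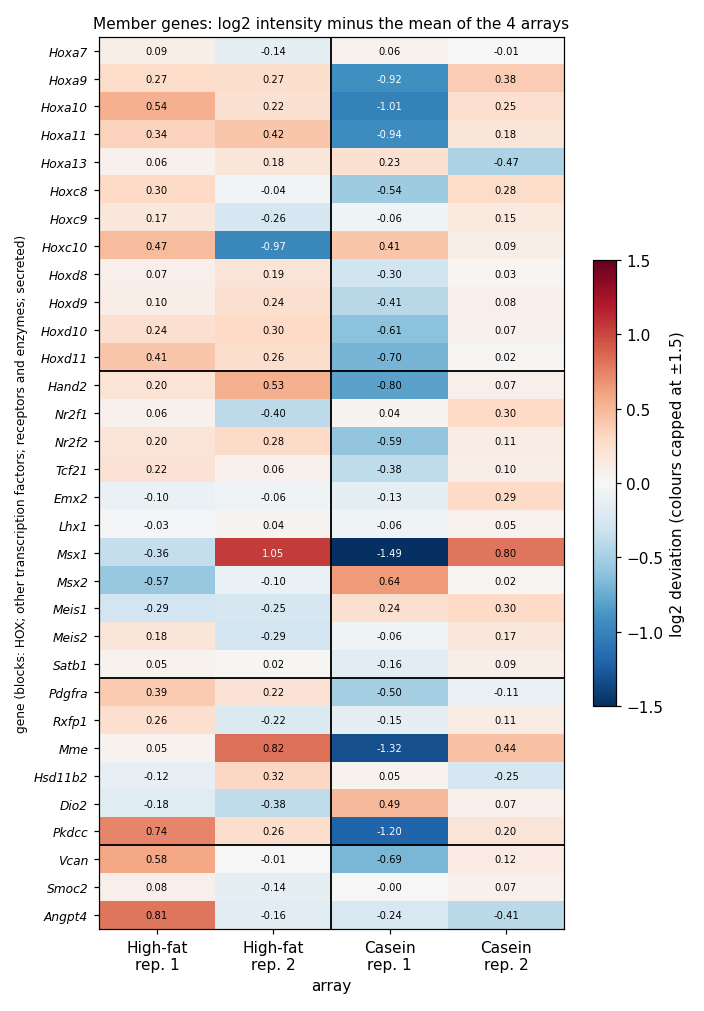
Log2 intensity of each of the 32 genes minus its own mean over the 4 arrays (colour and printed value), with arrays in columns, high-fat diet left of casein diet, and genes in rows by role. The column of casein diet replicate 1 holds the lowest value of its row for 19 genes, among them Hoxa9, Hoxa10, Hoxa11, Hoxd8 to Hoxd11, Hand2, Nr2f2, Mme and Pkdcc.

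Among the HOX genes, Hoxa9, Hoxa10, Hoxa11 and Hoxd8 to Hoxd11 had casein diet replicate 1 as the lowest array in each of the 7. Hoxa10, needed in mice for the stroma to respond to an implanting embryo, had intensities of 1886 and 1521 on the high-fat diet and 647 and 1547 on the casein diet. Hoxa11, its neighbour in the cluster and likewise needed for implantation in mice, had 405 and 427 on the high-fat diet and 166 and 363 on the casein diet. For Hoxa10 the groups overlapped, because casein diet replicate 2 lay between the high-fat diet arrays, whereas for Hoxa11 both high-fat diet arrays lay above both casein diet arrays. Both genes differed by 0.76 (SE 0.48 for Hoxa10 and 0.42 for Hoxa11, limma adjusted p = 0.863 for each), and against casein diet replicate 2 alone by 0.13 and 0.20. A second, dimmer probe set of Hoxa10 differed by 1.07. Hoxa9 had 1298 and 1293 on the high-fat diet and 566 and 1396 on the casein diet, so that casein diet replicate 2 was the highest array and its difference of 0.54 (SE 0.48) turned to -0.11 without casein diet replicate 1.

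The 4 HOXD genes were more even. Hoxd10 had 785 and 818 on the high-fat diet and 433 and 694 on the casein diet, a difference of 0.55 (SE 0.26), and Hoxd11 had 71.7 and 64.6 against 33.2 and 54.7, a difference of 0.67 (SE 0.28, limma unadjusted p = 0.0777, adjusted p = 0.863). Hoxd8 and Hoxd9 differed by 0.27 (SE 0.15) and 0.34 (SE 0.20). In all 4 of these genes both high-fat diet arrays lay above both casein diet arrays, by a margin over casein diet replicate 2 that gave differences of 0.10, 0.09, 0.21 and 0.31 for Hoxd8, Hoxd9, Hoxd10 and Hoxd11. Along the HOXD cluster the difference thus was larger at each higher paralog number from 8 to 11, as it was in HOXA from Hoxa7 (-0.05, SE 0.12) to Hoxa9 and Hoxa10. It did not rise further at higher numbers. Hoxa11 did not exceed Hoxa10, and Hoxa13 (0.24), Hoxd12 (-0.11) and Hoxd13 (-0.35), each under the intensity filter, were lower. Against casein diet replicate 2 alone, Hoxd9 (0.09) did not exceed Hoxd8 (0.10), nor Hoxa9 (-0.11) Hoxa7 (-0.02). This order is a description of neighbouring genes on 4 arrays, and no test was made of it.

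The remaining HOX members did not share it. Hoxc8 had 76.7 and 60.9 on the high-fat diet and 43.0 and 75.6 on the casein diet, with casein diet replicate 1 again lowest. Hoxc9 had 70.4 and 52.4 against 59.97 and 69.2, with overlapping groups. The means of Hoxc10 and Hoxa13 lay under the intensity filter, so neither was tested. Hoxc10 had 33.5 and 12.3 on the high-fat diet and 32.2 and 25.7 on the casein diet, and Hoxa13, the vaginal gene of the series, had 11.2 and 12.1 against 12.6 and 7.73. The other 21 HOX genes on the array, most of them with lower paralog numbers, had a median difference of -0.05, 6 higher and 15 lower, and casein diet replicate 1 was lowest for 6 of them. Only 10 of these reached the intensity filter, with a median of -0.03, 3 higher and 7 lower, and casein diet replicate 1 lowest for 3. Among those 3 were Hoxb3 and Hoxb5, in which casein diet replicate 1 minus replicate 2 was -0.65 and -0.70 log2. Of the 20 HOX genes tested in all, 0 passed limma's adjusted or unadjusted threshold of 0.05 (0% and 4.97% of all genes). Those with the smallest p outside the members were Hoxc4 (-0.24, SE 0.10), Hoxa5 (-0.51, SE 0.24) and Hoxa3 (-0.33, SE 0.19). For each of these 3 both high-fat diet arrays lay below both casein diet arrays, and Hoxa5 had 154 and 100.5 on the high-fat diet against 175 and 181 on the casein diet.

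**Figure D2:**
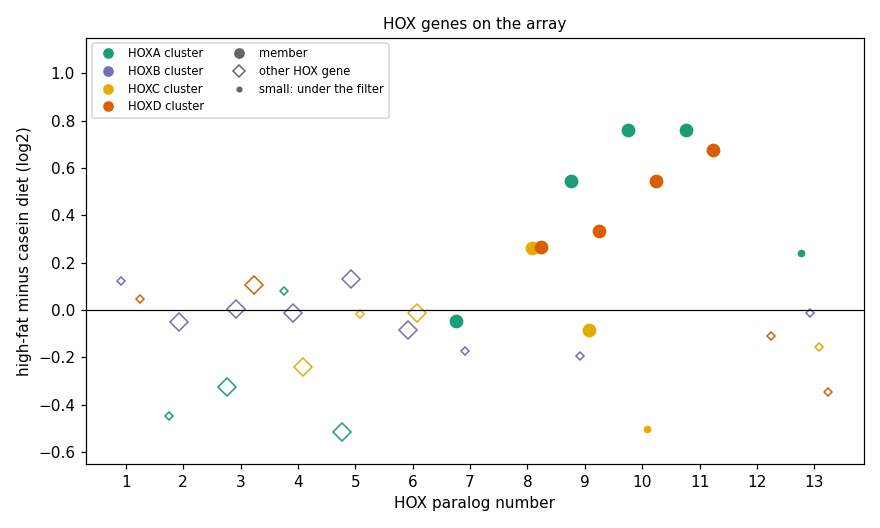
Difference between diets (high-fat minus casein, log2, vertical axis) of the 33 HOX genes on the array by paralog number (horizontal axis) and cluster (colour), with filled circles for the 12 members, open diamonds for the others, and small symbols for genes under the intensity filter. The 7 HOXA and HOXD genes of paralog numbers 8 to 11 lie between 0.27 and 0.76, and the other HOX genes lie between -0.51 and 0.26.

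The start of Hoxa11 is shown because the gene stands for this group, as the 250 bases before its RefSeq start site on GRCm38.p6 (chr6:52245811-52246060, minus strand). Capitals mark the only E-box (CANNTG), the letters that proteins of the HAND2 and TCF21 family bind, which begins 61 bases before the start.
Hoxa11: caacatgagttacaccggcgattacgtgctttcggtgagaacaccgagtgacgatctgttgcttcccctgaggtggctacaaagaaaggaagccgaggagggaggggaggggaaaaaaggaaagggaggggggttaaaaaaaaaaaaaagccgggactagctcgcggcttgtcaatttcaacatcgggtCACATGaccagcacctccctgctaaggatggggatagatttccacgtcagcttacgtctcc

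Hand2, which encodes a basic helix-loop-helix protein induced by progesterone in mouse uterine stroma, had the same order of arrays as most of these HOX genes, with casein diet replicate 1 lowest. Its intensities were 510.0 and 641 on the high-fat diet and 254 and 467 on the casein diet, with no overlap, and its difference was 0.73 (SE 0.35, limma adjusted p = 0.863), or 0.29 without casein diet replicate 1. Nr2f2, which encodes the stromal orphan receptor COUP-TFII, had 1147 and 1219.8 on the high-fat diet and 667 and 1078 on the casein diet, a difference of 0.48 (SE 0.27), or 0.13 without casein diet replicate 1. All 6 of its probe sets gave a higher high-fat diet mean, by 0.13 to 0.48. Its paralogue Nr2f1 had 68.9 and 50.2 against 67.9 and 81.3 and differed by -0.34 (SE 0.21), with overlapping groups, and leaving out 1 high-fat diet array gave -0.57 (replicate 1) or -0.11 (replicate 2). Tcf21, a mesenchymal factor of the same family as HAND2, had 403 and 363 on the high-fat diet and 266 and 373 on the casein diet, a difference of 0.28 (SE 0.20), or 0.04 without casein diet replicate 1.

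The 250 bases before the Hand2 start (chr8:57320733-57320982, plus strand) are shown with capitals at 2 E-boxes, 246 and 235 bases before the start, and at 1 match to TTTATNG, a core preferred by HOX proteins of high paralog number, 97 bases before it.
Hand2: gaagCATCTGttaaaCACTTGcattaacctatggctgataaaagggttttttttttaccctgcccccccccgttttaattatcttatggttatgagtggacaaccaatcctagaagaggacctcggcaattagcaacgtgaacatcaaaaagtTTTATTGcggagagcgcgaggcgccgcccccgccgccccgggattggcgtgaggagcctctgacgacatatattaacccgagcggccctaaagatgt

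MEIS1 and MEIS2 are TALE homeodomain proteins that bind DNA together with HOX proteins, and Meis1 had the opposite sign to the 7 HOXA and HOXD genes of paralog numbers 8 to 11, though not to all HOX genes. Meis1 had 278 and 286 on the high-fat diet and 402 and 419 on the casein diet. On this probe set the arrays of 1 diet were close together and the groups did not overlap, which gave the smallest p among members (difference -0.54, SE 0.09, 95% interval -0.80 to -0.28, limma unadjusted p = 0.00489, adjusted p = 0.856). The difference stayed between -0.57 and -0.51 when any 1 array was left out. Its 2 other probe sets gave -0.37 and -0.05, and in both the groups overlapped. The first had 231.02 and 177 on the high-fat diet against 230.95 and 294 on the casein diet. The second had 47.9 and 35.2 against 39.4 and 45.8. The size, the separation of the diets and the closeness within a diet thus depend on the probe set. Meis2 had 687 and 495 on the high-fat diet and 580.0 and 679 on the casein diet (difference -0.11, SE 0.21), and its 3 other probe sets lay between 0.0021 and 0.03. Of 7 TALE genes tested, 0 passed limma's adjusted threshold. At an unadjusted p under 0.05, 1 was higher and 1 lower (2.24% and 2.73% of all genes). The lower one was Meis1, and the higher one was Pknox2, a TALE gene outside the members, with 258 and 265.5 on the high-fat diet and 153 and 161 on the casein diet (difference 0.74, SE 0.09, limma unadjusted p = 0.00168, adjusted p = 0.849). Pbx3 and Meis3 differed by -0.23 (SE 0.17) and 0.12 (SE 0.14).

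The other homeobox and chromatin genes of the list followed no common direction. Emx2, required in mice for the urogenital ducts, had 461 and 473 on the high-fat diet and 451.5 and 606 on the casein diet (difference -0.16, SE 0.18). Lhx1, required in the duct epithelium of mouse embryos, was dim on every array, at 11.5 and 12.0 on the high-fat diet and 11.2 and 12.1 on the casein diet, and was not tested. The homeobox gene Msx1, which acts in mouse uterine epithelium before implantation, was uneven within both diets, with 201 and 535 on the high-fat diet and 91.8 and 449 on the casein diet. Replicate 2 of each diet was the higher one, the SE of its difference of 0.69 was 0.98, and the difference was -0.45 without casein diet replicate 1. Msx2 ran the other way, with 64.1 and 88.9 on the high-fat diet and 148 and 96.7 on the casein diet (difference -0.67, SE 0.30, limma adjusted p = 0.863), or -0.36 without casein diet replicate 1. Satb1, a chromatin organiser best known from T cells, had 213 and 209 against 184 and 220.1 (difference 0.07, SE 0.13), and 2 of its 4 probe sets over the filter had the opposite sign.

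**Figure D3:**
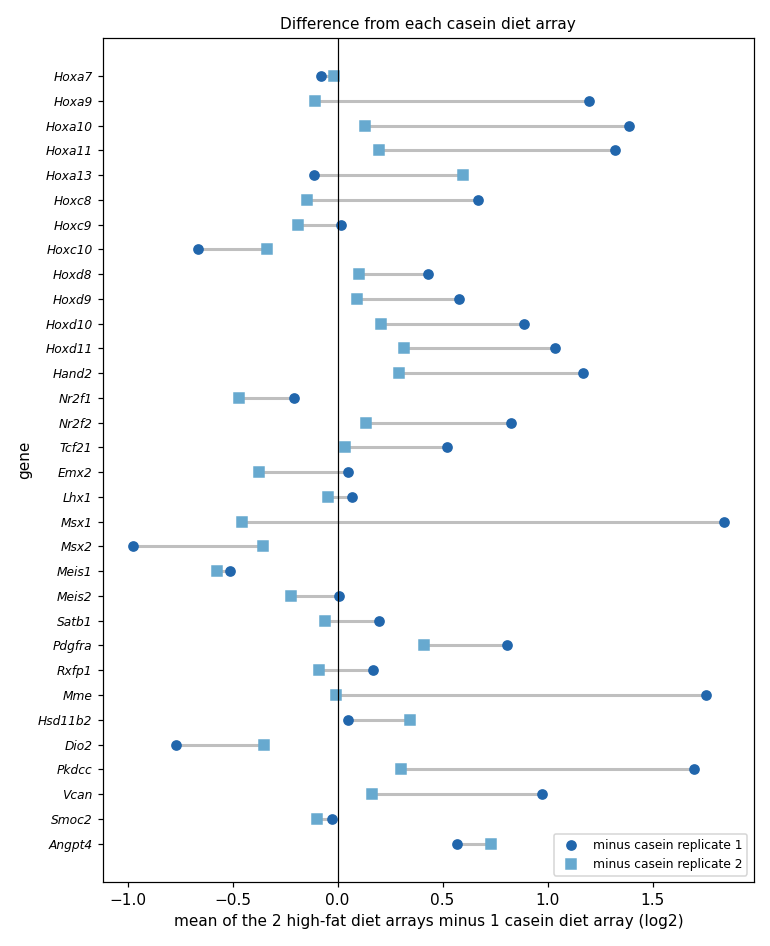
For each of the 32 genes, the mean log2 intensity of the 2 high-fat diet arrays minus that of casein diet replicate 1 (circles) and minus that of casein diet replicate 2 (squares). Circles reach 1.84 for Msx1, 1.75 for Mme and 1.70 for Pkdcc, whereas squares lie between -0.57 for Meis1 and 0.73 for Angpt4.

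Among receptors and enzymes, Pdgfra was the only member higher on the high-fat diet at an unadjusted p under 0.05. It had 3165 and 2815.5 on the high-fat diet and 1709.8 and 2242 on the casein diet, a difference of 0.61 (SE 0.18, 95% interval 0.10 to 1.11, limma unadjusted p = 0.0291, adjusted p = 0.863). The groups did not overlap, all 3 of its probe sets had the same sign, and the difference was 0.41 without casein diet replicate 1. Mme, which encodes the stromal surface peptidase CD10, had 935 and 1594 on the high-fat diet and 363 and 1227 on the casein diet, with overlapping groups (difference 0.87, SE 0.70), and the difference came to -0.0069 once casein diet replicate 1 was left out. Pkdcc, a secreted kinase of the mesenchyme, had the largest member difference, 0.999 (SE 0.54, limma adjusted p = 0.863). It had 939.6 and 677 on the high-fat diet and 246 and 647 on the casein diet, and differed by 0.30 without casein diet replicate 1.

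Dio2, the deiodinase that converts thyroxine to the active thyroid hormone, was lower on the high-fat diet, with 1465 and 1283 against 2335 and 1749. The groups did not overlap and all 3 probe sets had the same sign, between -0.66 and -0.50, but the gene did not pass after adjustment (difference -0.56, SE 0.19, 95% interval -1.09 to -0.026, limma unadjusted p = 0.044, adjusted p = 0.863). Without casein diet replicate 1 the difference was -0.35. Hsd11b2, which inactivates glucocorticoids, had 896 and 1212 on the high-fat diet and 1008 and 820.4 on the casein diet (difference 0.20, SE 0.21). Rxfp1, the relaxin receptor gene, had 334 and 241 against 252 and 301 (difference 0.04, SE 0.21). For both of these genes the groups overlapped.

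The 250 bases before the starts of Pkdcc (chr17:83215033-83215282, plus strand) and Dio2 (chr12:90739039-90739288, minus strand) set the member with the largest positive difference beside one of the opposite direction. Capitals mark the MEIS core TGACAG in Pkdcc, on the opposite strand and beginning 150 bases before the start, and the cAMP response element TGACGTCA in Dio2, 95 bases before the start.
Pkdcc: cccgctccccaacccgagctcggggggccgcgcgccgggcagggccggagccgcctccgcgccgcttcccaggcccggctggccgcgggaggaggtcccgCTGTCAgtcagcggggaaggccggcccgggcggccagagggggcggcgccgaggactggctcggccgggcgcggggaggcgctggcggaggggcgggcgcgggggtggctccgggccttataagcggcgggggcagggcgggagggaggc
Dio2: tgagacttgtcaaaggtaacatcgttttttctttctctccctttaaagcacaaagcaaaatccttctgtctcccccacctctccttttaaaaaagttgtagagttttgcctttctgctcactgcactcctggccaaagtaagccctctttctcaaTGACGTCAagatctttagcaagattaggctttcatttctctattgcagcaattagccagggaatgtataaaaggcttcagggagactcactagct

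In the 250 bases before 35 start sites of 26 members for which RefSeq sequence was at hand, counted on both strands, the MEIS core stood in 2 windows, TTTATNG in 2, an E-box in 17, the cAMP response element in 1 and ACANNNTGT, the core of the progesterone receptor palindrome, in 0. Over all 32851 windows of that length the shares were 15.9%, 9.81%, 66.2%, 1.55% and 5.84%, against 5.71%, 5.71%, 48.6%, 2.86% and 0% of the member windows. A match is only a run of letters in this window, and several genes have more than 1 window.

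Of the secreted products, Vcan, a large proteoglycan of loose matrix, had 1107 and 737 on the high-fat diet and 460.1 and 805 on the casein diet, with overlapping groups (difference 0.57, SE 0.37, or 0.17 without casein diet replicate 1). Angpt4, a ligand of the endothelial TIE2 receptor, had 152 and 77.9 against 73.2 and 65.5. The groups thus did not overlap, but high-fat diet replicate 1 stood apart from the other 3 arrays (difference 0.65, SE 0.36, or 0.17 without high-fat diet replicate 1). That array also had the highest skeletal muscle sum, whose part in the value was not tested. Smoc2, a calcium-binding matrix protein, had 1132 and 968 on the high-fat diet and 1068 and 1122 on the casein diet (difference -0.06, SE 0.12).

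**Figure D4:**
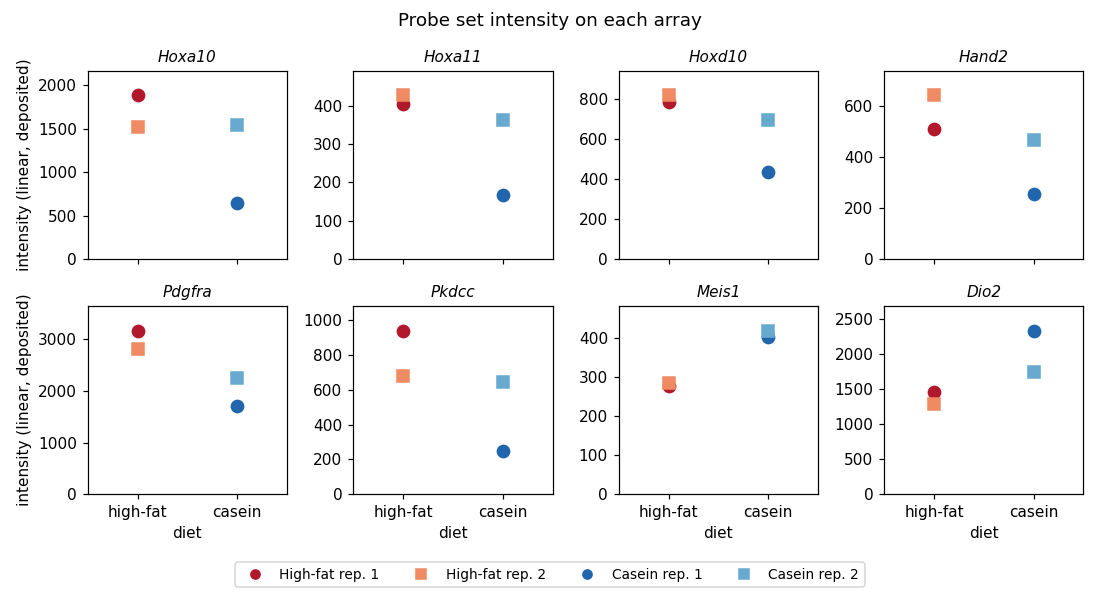
Deposited intensity (linear, each axis starting at 0) of 8 of the genes on each array, high-fat diet left of casein diet, with circles for replicate 1 and squares for replicate 2. In Hoxa10, Hoxa11, Hoxd10, Hand2 and Pkdcc the circle of casein diet replicate 1 lies apart below the other 3 arrays, whereas both casein diet arrays lie above both high-fat diet arrays in Meis1 and Dio2.

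Lists of related genes were read from the same fit, and limma called 0 of their genes after adjustment. Of 14 genes of Müllerian duct development tested, 0 were higher and 1 lower at an unadjusted p under 0.05 (2.24% and 2.73% of all genes). This was Wnt7a, a Wnt ligand of the duct epithelium, with 47.0 and 36.9 on the high-fat diet and 70.7 and 93.2 on the casein diet (difference -0.96, SE 0.21). Wnt9b differed by 0.24 (SE 0.10). Gata3, whose groups overlapped, differed by -0.38 (SE 0.23), or -0.12 without casein diet replicate 1. The next list was the axis that runs through the progesterone receptor, Indian hedgehog, COUP-TFII, HAND2 and fibroblast growth factors. Of its 14 genes tested, 0 were higher and 1 lower at that threshold (2.24% and 2.73% of all genes). The lower one was Pgr itself (difference -0.39, SE 0.09, limma adjusted p = 0.863). Ptch1, the hedgehog receptor and a target of the pathway, had 1004 and 1198 on the high-fat diet and 348.5 and 895 on the casein diet (difference 0.97, SE 0.51, or 0.29 without casein diet replicate 1), the same order of arrays as Hand2 and Nr2f2. Fgfr1 had 538 and 285 on the high-fat diet and 222.5 and 289 on the casein diet, with overlapping groups (difference 0.63, SE 0.37, or 0.17 without high-fat diet replicate 1).

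The decidua is the tissue into which uterine stroma turns in pregnancy. Of 13 of its genes tested, 2 were higher and 0 lower at a limma unadjusted p under 0.05 (2.24% and 2.73% of all genes). Prl8a2, a prolactin-family hormone made by decidual cells in mice, had 3877 and 105 on the high-fat diet and 12.6 and 9.95 on the casein diet. The difference of 5.83 (SE 1.90, limma adjusted p = 0.863) thus came with a wide gap between the 2 high-fat diet arrays. Fst, which encodes the activin-binding protein follistatin, had 375 and 589.7 against 99.995 and 238 (difference 1.61, SE 0.52, or 0.98 without casein diet replicate 1). Cited2 differed by 0.26 (SE 0.14).

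Lists of cell type markers were set beside the members on each array. The median deviation of the 32 members from the 4-array mean was 0.18 and 0.05 on the high-fat diet, against -0.27 and 0.10 in casein diet replicates 1 and 2. For 14 general fibroblast markers, 1 of them Pdgfra, it was 0.16 and -0.08, against -0.15 and 0.10, and casein diet replicate 1 was lowest for 6 of the 14. Of these 14, 8 had the higher mean on the high-fat diet and 6 the lower, and single markers differed in their order of arrays. The collagen gene Col1a2 had 16586 and 13677 on the high-fat diet and 14650.0 and 15489 on the casein diet, a difference of -0.00020 (SE 0.14), and casein diet replicate 1 lay within the range of the other 3 arrays. Pdgfrb had 2267 and 1793 against 1119.5 and 1603 (difference 0.59, SE 0.24), with casein diet replicate 1 lowest. For 6 endothelial markers the deviation was 0.33 and 0.33, against -0.59 and -0.05, and casein diet replicate 1 was lowest for all 6. In all 6 of these, both high-fat diet arrays also lay above both casein diet arrays (16.6% of all genes). Smooth muscle markers had the reverse order by diet, at -0.31 and -0.53 against 0.23 and 0.42. Of those 10 markers, 9 had both high-fat diet arrays below both casein diet arrays (19.3% of all genes). Mesothelial markers, at -0.55 and -0.55 against 1.33 and 0.24, and gastric markers, at -2.49 and -2.52 against 4.05 and 0.82, were by their medians highest where the members were lowest. Casein diet replicate 1 was highest for 7 of the 8 mesothelial markers (33.3% of all genes). It was lowest for Wt1, which had 301 and 308 on the high-fat diet against 245 and 311 on the casein diet. For 8 markers of stomach and gut mesenchyme, the connective tissue of those organs, the deviation was -0.17 and -0.11, against 0.13 and 0.07, and 2 of the 8 had the higher mean on the high-fat diet (Hlx, difference 0.29, and Nkx2-3, 0.10). Among the other 6, Barx1, a stomach patterning gene, had 44.5 and 38.7 on the high-fat diet and 87.7 and 79.5 on the casein diet (difference -1.01, SE 0.13, limma adjusted p = 0.849). Only 4 of the 8 reached the intensity filter, so the deviations of this list rest in part on dim genes, and their source was not tested.

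**Figure D5:**
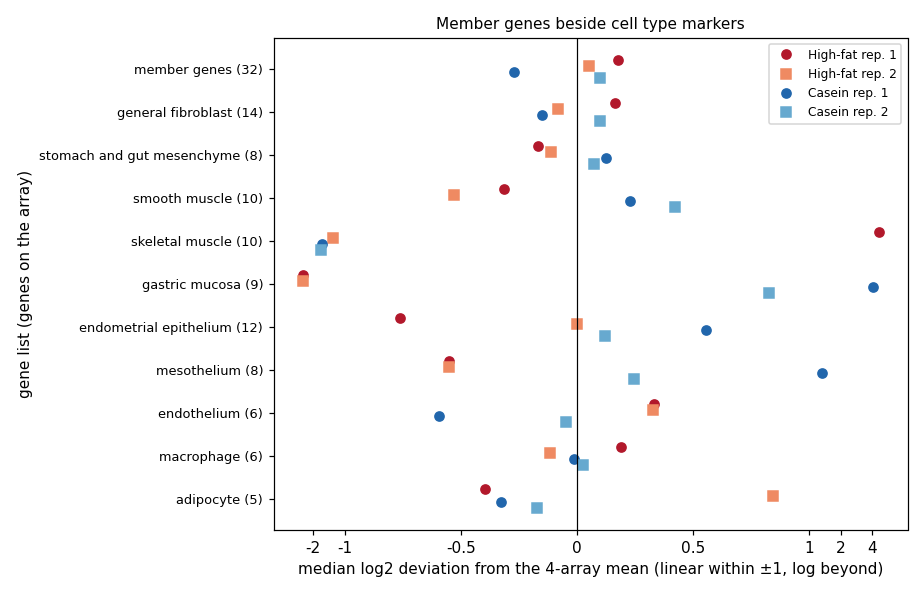
Median log2 deviation from the 4-array mean (horizontal axis, linear within 1 of 0 and logarithmic beyond) of the 32 member genes and of 10 lists of cell type markers, on each array (colours and symbols). Casein diet replicate 1 lies at -0.27 for the members and at 4.05 for gastric mucosa markers, and high-fat diet replicate 1 lies at 4.62 for skeletal muscle markers.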

How the data were processed

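Gene expression was measured in 4 samples of endometriotic lesion, 2 per diet, on Affymetrix 3′ arrays from 0.1 µg of total RNA, per the labels' protocols. The deposited values are linear intensity values of 45101 probe sets, which the authors had normalised across arrays, and GCOS and RMA are named in the submitters' processing notes, with versions, order and the step back to a linear scale not given in the sources used here. Normalising between arrays hides any shift shared by most genes. Groups were taken from the sample titles. No scan date or slide was given, so no batch could be used, and the number of arrays limits the precision.

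Probe sets were named through the platform annotation. Of those that are not among 64 controls, 34945 had 1 gene symbol, 932 several and 9160 none, and all 32 members were found by gene identifier in the RefSeq gene table of GRCm38.p6. Log2 was taken with no pseudocount, the probe set with the highest mean log2 value was kept for each of 18193 genes, and the 12797 genes whose mean reached the 40th percentile of probe sets that are not controls (intensity 33.9) were tested in limma 3.58.1 (R 4.3.3; lmFit, eBayes, two-sided, Benjamini-Hochberg over all genes, 3.80 total degrees of freedom). The fit was tested on simulated data. The members and lists were chosen with earlier results of these data known. All members are named, and of each pathway list at most the 3 tested genes with the smallest p that are not members. Named besides, and chosen after their values were seen, were Esr1, Col1a2, Pdgfrb, Krt8, Krt19, Ltf, Atp4a, Atp4b, Barx1, Hlx, Nkx2-3, Hoxb3, Hoxb5, Hoxd12, Hoxd13 and Wt1. Equal replicate numbers are not taken to pair samples, since the labels do not say so, and the deviations of same-numbered arrays correlated at -0.02. The alternatives tried were a replicate block, quantile normalisation, no filter or the 60th percentile, a pseudocount of 16, the mean of all probe sets, and leaving out each array. Upstream sequences are from RefSeq (GRCm38.p6), found for 26 of 32 members. Figures were drawn with matplotlib 3.10.9.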

Additional observations from a re-analysis of the deposited data

How the results depend on the processing

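With 1 array left out, 1 diet has a lone array that is assumed to vary like the others, so only differences are given here for those fits. The median member difference was -0.012 when casein diet replicate 1 was dropped, the lowest, and 0.48 when replicate 2 was, the highest. It was 0.23 to 0.26 under the other settings. With the replicate block the count of genes was 0 (576 at an unadjusted p under 0.05, against 636 without it), the count of members was 0 (3 at an unadjusted p under 0.05) and the median was 0.26, so it changed no call. Under the 10 alternatives 17 of 32 members kept their direction in all. The others changed sign in at least 1, and the cause was not tested. When 1 array was left out, differences of changing sign spanned -0.20 to 0.28 for Rxfp1, -0.16 to 0.064 for Hoxa7, -0.30 to 0.13 for Hoxc9, -1.22 to 0.22 for Hoxc10, -0.045 to 0.069 for Lhx1, -0.45 to 1.84 for Msx1, -0.34 to 0.13 for Meis2, -0.021 to 0.41 for Hsd11b2, -0.18 to 0.049 for Smoc2, -0.11 to 1.19 for Hoxa9, -0.15 to 0.67 for Hoxc8, -0.059 to 0.20 for Satb1, -0.0069 to 1.75 for Mme, -0.11 to 0.59 for Hoxa13 and -0.38 to 0.049 for Emx2. The change of sign came without casein diet replicate 1 for 7 members (Hoxa9, Hoxc8, Lhx1, Msx1, Satb1, Rxfp1 and Mme), without casein diet replicate 2 for 4, without high-fat diet replicate 1 for 1 and without high-fat diet replicate 2 for 8. With the mean of all probe sets, Lhx1 (-0.064) and Satb1 (-0.0078) also changed sign. At an unadjusted p under 0.05 that setting left 1 member of 28 (588 of 11834 genes), against 3 of 29.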
